A study of Oryctolagus cuniculus with 16 samples.

Results

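The intima of the basilar terminus (BT), where the basilar artery divides, was compared with the intima of the straight basilar artery (BA) in rabbits with sham surgery. The comparison rested on 4 of the 16 RNA-seq libraries of the study, chosen by their labels: BT and BA intima of rabbit 3 and BT and BA intima of rabbit 4. Both animals were female New Zealand white rabbits with unligated carotid arteries, so that basilar flow was normal, and tissue was taken 24 h after surgery. The ages of the animals are not given in the sources used here, and no allele or drug was involved. Thin strips along the lumen were cut by laser microdissection from frozen sections, strips from several sections of 1 animal were combined, and the RNA was amplified before sequencing. The BA was sectioned lengthwise and the BT coronally, so the location cannot be told apart from the plane of section. Libraries of ligated rabbits 5 and 6 and of the sham media, the muscular layer under the intima, are used below only as comparators.

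The arterial intima is a single layer of endothelial cells on a basement membrane, and an internal elastic lamina parts it from the contractile smooth muscle of the media. At a terminus the stream strikes the apex and divides, so the endothelium there meets high and spatially changing shear stress, whereas the endothelium of a straight segment meets a steadier shear. Arteries at the base of the brain lie in the subarachnoid space and are wrapped by leptomeningeal fibroblasts and perivascular macrophages.

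Named genes received 12590707 and 6694436 counts in the BT libraries of rabbits 3 and 4 and 17686105 and 12658496 counts in the BA libraries. Expression is given as counts relative to library size (CPM) after TMM scaling, a correction for composition, in the order rabbit 3 then rabbit 4. Intervals and limits of counts cover counting error only. The label of the tissue was checked with markers. The summed level of 21 endothelial markers was 1678 and 7292 CPM in the BT and 2428 and 7832 CPM in the BA, against 570.2 to 1858 CPM in the 4 libraries of the sham media. On these sums the BT library of rabbit 3 was below the highest medial library and was the lowest of the intimal libraries. Each layer and flow group was scaled on its own libraries, so small gaps between those sets cannot be ranked. PECAM1, a junctional adhesion molecule of endothelium, was at 200.3 and 527 CPM in the BT and 192 and 463 CPM in the BA. VWF, the clotting glycoprotein that endothelium stores, was at 483 and 2728 CPM in the BT and 727 and 2394 CPM in the BA. Rabbits differed more than locations for both markers. Genes of contractile smooth muscle were abundant in all 4 intimal libraries, with sums of 30330 and 33420 CPM in the BT and 110700 and 55500 CPM in the BA. In the sham media the same sum was 99440 to 131500 CPM.

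**Figure D1:**
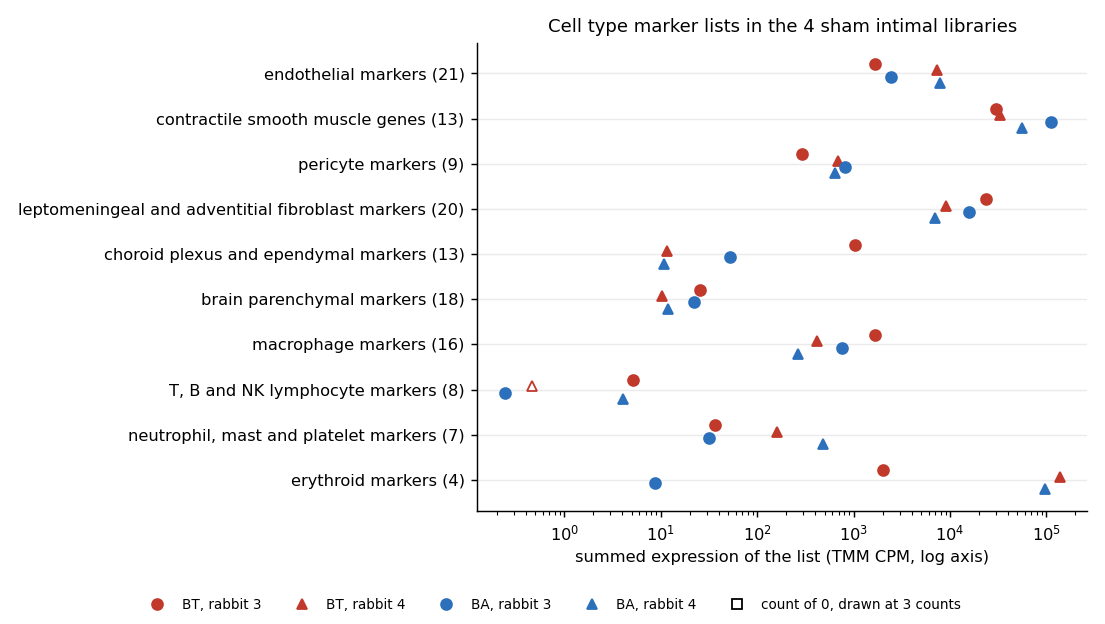
Summed expression of 10 cell type marker lists (vertical axis, number of genes in the count table in parentheses) in TMM CPM on a log axis, with 1 point for each of the 4 sham intimal libraries. Endothelial and erythroid markers separate the rabbits, while contractile smooth muscle genes were lower in both BT libraries (30330 and 33420 CPM) than in both BA libraries (110700 and 55500 CPM). The choroid plexus sum peaked in the BT library of rabbit 3 (1023 CPM), where 1 gene, KCNJ13, made up 912 CPM.

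Blood contributed unevenly. HBB2, a beta globin of red cells, was at 2010 and 137179 CPM in the BT and 5.02 and 95275 CPM in the BA, so both libraries of rabbit 4 held far more of it than either library of rabbit 3. Lymphocyte markers were at or near 0, with sums of 5.15 and 0 CPM in the BT and 0.242 and 4.05 CPM in the BA. In bulk tissue of this kind, fewer cells of a type and less RNA per cell cannot be told apart.

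Of 9261 genes with a mean above 1 CPM in the BT or the BA, 10 rose in the BT at a q-value below 0.05, which is 0.108% of the genes tested, and 0 fell (edgeR's quasi-likelihood F test with rabbit as a block, Benjamini-Hochberg adjusted). At an unadjusted p below 0.05, 489 genes (5.28%) were past the threshold, 324 of them higher in the BT (3.5%) and 165 lower (1.78%). With 2 rabbits and 1 residual degree of freedom, the estimate of spread leaned on all genes together. With the rabbit block left out, 0 genes passed the adjusted threshold, and 129 higher and 69 lower genes passed the unadjusted one. The within-rabbit differences were barely shared between the animals (Pearson's r of 0.0756 across 9261 genes, which are not independent replicates and are given here as a description). Of the 800 genes more than 4-fold higher in the BT of rabbit 3, 205 (25.6%) were at least 2-fold higher in the BT of rabbit 4, against 13.9% of all genes tested. In the other direction 286 genes were more than 4-fold lower in the BT of rabbit 3, and 77 of them (26.9%) were at least 2-fold lower in rabbit 4, against 15.2% of all genes tested.

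**Figure D2:**
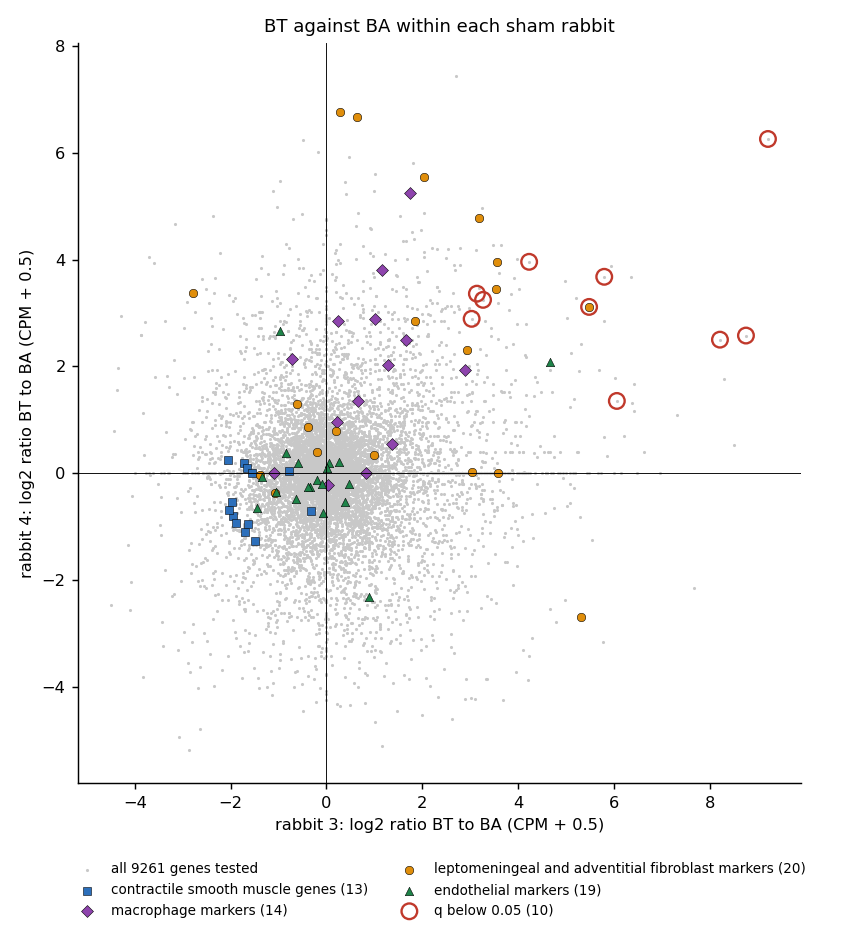
Log2 ratio of BT to BA in rabbit 3 (horizontal axis) and rabbit 4 (vertical axis), each on log2(CPM + 0.5), with 1 point per gene tested. The 10 genes past the adjusted threshold (open circles) lie at the upper right, the 13 contractile smooth muscle genes (squares) lie left of 0 in rabbit 3 and mostly below 0 in rabbit 4, and 19 endothelial markers (triangles) lie around the origin with few exceptions.

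The 10 genes that rose in the BT encode a growth factor, a Wnt agonist, membrane transporters, a phospholipid-binding protein, a peptidase, a matrix glycoprotein and a secreted serpin. All 10 were highest in the BT library of rabbit 3, which carried 80.3% to 99.7% of the BT signal summed over both rabbits, and all 10 were lowest, or tied for lowest, in the BA library of rabbit 4. In 6 of the 10 both BT libraries lay above both BA libraries, and in 4 the BA of rabbit 3 exceeded the BT of rabbit 4. Non-overlap in this direction was seen for 1180 of all genes tested (12.7%). Leaving out either rabbit, in a fit of the other intimal libraries, removed all 10 calls.

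PTN, which encodes the heparin-binding growth factor pleiotrophin, had the smallest p-value. PTN was at 3381 and 43.8 CPM in the BT and at 5.198 and 0.0779 CPM in the BA, the latter a single count. Both BT libraries were far above both BA libraries, and rabbit 3 was above rabbit 4 at both locations. The difference was 9.28 on the log2 scale with a standard error of 0.53 (q = 0.000369, edgeR's quasi-likelihood test). Within rabbit 3 the ratio of BT to BA was 650.5, with a 95% counting interval of 526.6 to 813.4, and within rabbit 4 it was 561.7 with an interval of 99.99 to 22260. ANXA8, an annexin that binds phospholipids in the presence of calcium, was at 399.9 and 67.8 CPM in the BT and at 20.9 and 3.90 CPM in the BA. The groups did not overlap, and the difference was 4.19 ± 0.42 on the log2 scale (SE, q = 0.00857, edgeR's quasi-likelihood test). Its within-rabbit log2 ratios were close, at 4.23 in rabbit 3 and 3.96 in rabbit 4.

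RSPO3, a secreted R-spondin that strengthens Wnt signals, was at 148 and 2.33 CPM in the BT and had no count in either BA library. Against a limit of 3 counts per library, it was at least 814.5-fold higher in the BT of rabbit 3 and at least 9.96-fold higher in the BT of rabbit 4 (q = 0.00857, edgeR's quasi-likelihood test). DPP4, a cell-surface peptidase that trims peptide hormones and chemokines, was at 158 and 5.90 CPM in the BT and 2.36 and 0 CPM in the BA (q = 0.0139, edgeR's quasi-likelihood test). Neither gene overlapped between the locations.

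Membrane transporters made up 4 of the 10 genes. SLC22A6 and SLC22A8 encode related organic anion transporters, OAT1 and OAT3, and their genes neighbour each other in the RefSeq annotation. SLC22A6 was at 284 and 4.50 CPM in the BT and 5.86 and 0.0779 CPM in the BA, a difference of 5.61 ± 0.55 on the log2 scale (SE, q = 0.00857, edgeR's quasi-likelihood test). SLC22A8 was at 271 and 0.776 CPM in the BT and 3.57 and 0 CPM in the BA (q = 0.0104 by the same edgeR test). For both, the BA of rabbit 3 exceeded the BT of rabbit 4, so the groups overlapped and the call rested on the difference within each rabbit. In rabbit 4 the SLC22A8 signal was 5 counts against 0, at least 3.32-fold higher. SLC26A7, an anion exchanger, was at 215 and 2.48 CPM in the BT and had no count in the BA, at least 1188-fold and 10.6-fold higher in rabbits 3 and 4 (q = 0.00857, edgeR's quasi-likelihood test). SLC16A9, of the monocarboxylate transporter family, was at 272 and 14.6 CPM in the BT and 27.8 and 1.09 CPM in the BA, a difference of 3.48 ± 0.45 on the log2 scale (SE, q = 0.0330, edgeR's quasi-likelihood test). Its groups overlapped too.

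EFEMP1, the matrix glycoprotein fibulin-3, was at 999.5 and 10.2 CPM in the BT and 113 and 0.546 CPM in the BA. The rabbits differed more than the locations, with the BA of rabbit 3 above the BT of rabbit 4, and the difference within rabbits was 3.54 ± 0.44 on the log2 scale (SE, q = 0.0283, edgeR's quasi-likelihood test). SERPINF1, which encodes the anti-angiogenic pigment epithelium-derived factor, was at 256 and 62.7 CPM in the BT and 30.9 and 8.03 CPM in the BA, with no overlap. It rose by 3.01 ± 0.42 on the log2 scale (SE, q = 0.0499, edgeR's quasi-likelihood test) and was the gene nearest to the threshold.

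**Figure D3:**
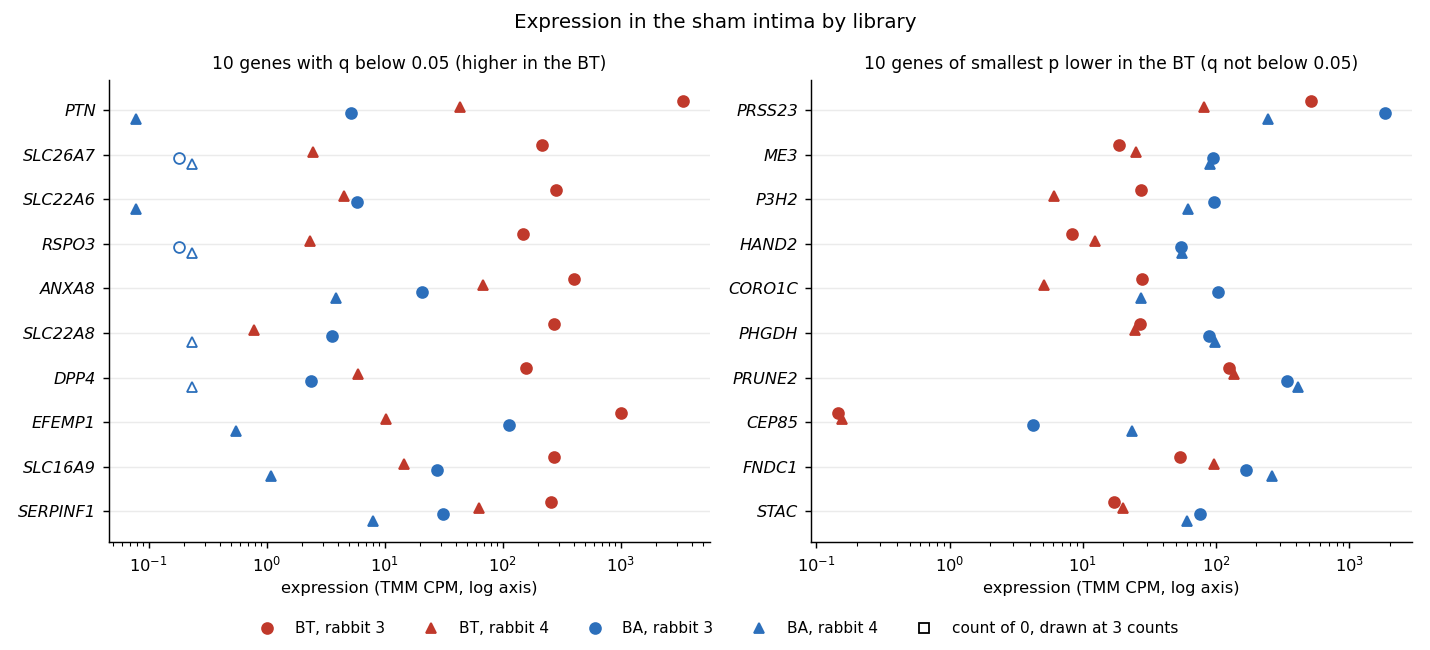
Expression of the 10 genes that rose in the BT (left) and of the 10 genes of smallest p among those lower in the BT, none past the adjusted threshold (right), in TMM CPM on a log axis, with 1 point per library and open symbols for counts of 0 drawn at the level of 3 counts. On the left the BT of rabbit 3 was the highest point for every gene, reaching 3381 CPM for PTN, and on the right both BT points lie below both BA points for most genes.

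No gene fell at the adjusted threshold. Among the 10 genes of smallest p that were lower in the BT, q ranged from 0.192 to 0.354 (edgeR's quasi-likelihood test), and the log2 differences ran from -1.53 to -5.88. Both BT libraries were below both BA libraries for 142 of the 165 genes lower at an unadjusted p below 0.05, whereas both were above for 166 of the 324 higher genes. Over all genes tested, 12.8% had both BT libraries below both BA libraries. The median log2 fold change was -1.34 for the 165 and 3.26 for the 324. In 57 of the 324 there was no count in either BA library, and in 3 of the 165 there was none in either BT library.

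ME3, a mitochondrial malic enzyme, was at 18.5 and 24.99 CPM in the BT and 94.3 and 90.0 CPM in the BA, a log2 difference of -2.10 ± 0.43 (SE). PHGDH, which starts the synthesis of serine from a glycolytic intermediate, was at 26.7 and 24.7 CPM in the BT and 87.8 and 97.6 CPM in the BA, a log2 difference of -1.85. HAND2, a transcription factor of the cardiovascular and neural crest lineages, was at 8.27 and 12.3 CPM in the BT and 54.4 and 55.1 CPM in the BA. For these 3 genes the rabbits were alike and the locations were apart. P3H2, a collagen prolyl 3-hydroxylase, was at 27.3 and 6.05 CPM in the BT and 97.1 and 61.2 CPM in the BA. CORO1C, an actin-binding coronin, was at 27.6 and 5.12 CPM in the BT and 103 and 27.2 CPM in the BA, where the BT of rabbit 3 and the BA of rabbit 4 met. PRSS23, a secreted serine protease, was at 513 and 81.3 CPM in the BT and 1851 and 246 CPM in the BA, so that it was lower in the BT within each rabbit but overlapped between them. PRUNE2, FNDC1 and STAC had log2 differences of -1.53, -1.54 and -1.87 and did not overlap. CEP85, a centrosomal protein gene, had 2 and 1 counts in the BT and 70 and 299 counts in the BA.

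All 13 genes of contractile smooth muscle tested had a fitted log2 fold change below 0, with a median of -1.26 against 0.02 over all genes tested. At an unadjusted p below 0.05, 7 of 13 were lower in the BT (53.8%, against 1.78% of all genes) and 0 were higher. An unblocked fit gave 6 of 13. The median within-rabbit log2 ratio was -1.71 in rabbit 3 and -0.70 in rabbit 4. Of the 13 genes, 9 were lower in the BT within both rabbits, and 4 (SYNPO2, LMOD1, MYLK and SMTN) were slightly higher in the BT of rabbit 4, with log2 ratios of 0.04 to 0.25. None passed the adjusted threshold. ACTA2, smooth muscle alpha-actin, was at 19994 and 19879 CPM in the BT and 76823 and 34734 CPM in the BA, a log2 difference of -1.37 ± 0.48 (SE, q = 0.722, edgeR's quasi-likelihood test). MYH11, the smooth muscle myosin heavy chain, was at 448 and 424 CPM in the BT and 1830 and 688 CPM in the BA. The intermediate filament gene DES was at 169.8 and 195.9 CPM in the BT and 475.5 and 473.8 CPM in the BA. Both BT libraries were below both BA libraries for all 3. ACTG2 and TPM2, which encode enteric gamma-actin and beta-tropomyosin, had log2 differences of -1.40 each. Among 7 pericyte markers tested, 2 were lower at an unadjusted p below 0.05 (28.6%, against 1.78% of all genes), MCAM at 13.3 and 27.3 CPM in the BT and 74.5 and 44.0 CPM in the BA, and RGS5 at 83.5 and 65.6 CPM in the BT and 391 and 78.4 CPM in the BA. Without the block, 1 of the 7 pericyte markers was lower.

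Adhesion and basement membrane genes, many of which smooth muscle also expresses, had medians of the same sign, and the part of smooth muscle RNA in this was not tested. Of 27 integrin and focal adhesion genes, 4 were lower in the BT at an unadjusted p below 0.05 (14.8%, against 1.78% of all genes). At that threshold 1 was higher (3.7%, against 3.5%), and the median log2 fold change was -0.69. ACTN1, which encodes the actin cross-linker alpha-actinin 1, was at 109 and 44.7 CPM in the BT and 186 and 179.5 CPM in the BA. ZYX, a focal adhesion protein, was at 57.7 and 93.0 CPM in the BT and 139 and 173 CPM in the BA. The fibronectin receptor subunit ITGA5 was at 63.4 and 159 CPM in the BT and 144 and 281 CPM in the BA. The laminin receptor subunit ITGA7 had a log2 difference of -1.08, and the higher gene was TLN2, a talin, at 1.05. Of 16 basement membrane genes, 4 were lower at an unadjusted p below 0.05 (25%, against 1.78% of all genes). In this list 0 were higher, and the median was -0.31. COL8A1, a short-chain collagen of vascular walls, was at 2396 and 1911 CPM in the BT and 5760 and 4777 CPM in the BA, without overlap. COL4A1, a network-forming collagen of basement membranes, was at 63.4 and 53.7 CPM in the BT and 145 and 138 CPM in the BA. The heparan sulfate proteoglycan gene HSPG2 and the collagen gene COL15A1 had log2 differences of -1.17 and -1.05. The adhesion glycoprotein TNC was at 513 and 412 CPM in the BT and 1663 and 941 CPM in the BA. In an unblocked fit, 0 integrin genes and 2 basement membrane genes were lower at an unadjusted p below 0.05.

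Endothelial markers gave a different picture. Of 19 tested, 18 did not pass even the unadjusted threshold, and the median log2 fold change was -0.20. CLDN5, the claudin of endothelial tight junctions, was at 311 and 1654 CPM in the BT and 482 and 2313 CPM in the BA, and CDH5, the cadherin of endothelial junctions, was at 13.5 and 18.5 CPM in the BT and 17.2 and 22.3 CPM in the BA. For PECAM1 the log2 difference was 0.13 ± 0.34 and for VWF it was -0.20 ± 0.37 (SE). These standard errors allow differences in either direction. The exception was KDR, a main receptor of vascular endothelial growth factor, at 16.7 and 6.21 CPM in the BT and 0.181 and 1.09 CPM in the BA, from 231 and 40 counts against 3 and 14 (q = 0.768, edgeR's quasi-likelihood test). It was the only endothelial marker in which the groups did not overlap with the BT above the BA.

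Among 23 flow-responsive endothelial genes, 2 were higher at an unadjusted p below 0.05 (8.7%, against 3.5% of all genes) and 0 were lower, with a median log2 fold change of 0.29, and 0 were higher in an unblocked fit. ADAMTS1, a matrix protease, was at 391 and 1154 CPM in the BT and 261 and 401 CPM in the BA. PTGS2, the inducible cyclooxygenase, was at 399 and 1034 CPM in the BT and 245 and 442 CPM in the BA. Each was higher in the BT within both rabbits, and each had a BT library within the range of the BA. VCAM1, an adhesion molecule for leukocytes, was at 695 and 2926 CPM in the BT and 533 and 2630 CPM in the BA (q = 0.999, edgeR's quasi-likelihood test).

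Immediate early genes, which are transcribed within minutes of a stimulus, were higher in the BT at an unadjusted p below 0.05 for 5 of 14 (35.7%, against 3.5% of all genes), and 0 were lower. The median log2 fold change was 0.88, and for 8 of 14 both BT libraries lay above both BA libraries, as they did for 12.7% of all genes tested. The unblocked fit gave 2. NR4A1, an orphan nuclear receptor, was at 50.4 and 146 CPM in the BT and 23.5 and 28.3 CPM in the BA. The anti-proliferative gene BTG2 was at 858 and 549 CPM in the BT and 358 and 278 CPM in the BA. The zinc finger factor EGR2 was at 32.7 and 36.2 CPM in the BT and 8.95 and 0.156 CPM in the BA. FOS, a subunit of the AP-1 transcription factor, was at 943 and 884 CPM in the BT and 679 and 139 CPM in the BA. In these 4 genes the locations did not overlap, and the BT of rabbit 4 was above that of rabbit 3 for NR4A1 and EGR2 and below it for BTG2 and FOS. The fifth gene, ATF3, a stress-induced transcription factor, had a log2 difference of 1.35. The smallest q among these genes was 0.450 (edgeR's quasi-likelihood test). DUSP1, a phosphatase that ends MAP kinase signals, was at 994 and 1212 CPM in the BT and 1067 and 792 CPM in the BA and overlapped. In the sham media NR4A1, BTG2, EGR2, FOS and DUSP1 were also higher in the BT within both rabbits. Their log2 ratios there ran from 0.68 to 2.29.

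Markers of tissue around the artery stood beside the genes that rose in the BT. The median log2 fold change of 20 leptomeningeal and adventitial fibroblast markers was 2.29. At an unadjusted p below 0.05, 9 were higher in the BT (45%, against 3.5% of all genes) and 0 were lower. Of these, SLC22A6 is also among the 10 genes past the adjusted threshold. Without the rabbit block, 1 was higher. The summed level of the list was 23710 and 9094 CPM in the BT and 15910 and 6973 CPM in the BA, so the BA of rabbit 3 exceeded the BT of rabbit 4. Much of this sum came from OGN and COL3A1, whose levels are given below. SLC13A4, a sulfate transporter of the meninges, was at 537 and 7.29 CPM in the BT and 45.4 and 0 CPM in the BA. The GABA transporter SLC6A13 was at 181 and 4.97 CPM in the BT and 15.1 and 0 CPM in the BA. OSR1, a transcription factor of fibroblasts, was at 181 and 4.66 CPM in the BT and 23.1 and 0.546 CPM in the BA. Each followed the order of libraries seen for SLC22A6, EFEMP1 and SLC16A9, with the BT of rabbit 3 first and the BA of rabbit 3 next. The abundant small proteoglycan OGN had the same order with smaller gaps, at 13501 and 3829 CPM in the BT and 6791 and 3007 CPM in the BA, and the fibrillar collagen COL3A1 did not, at 1603 and 2787 CPM in the BT and 4211 and 2852 CPM in the BA.

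Of 13 choroid plexus and ependymal markers in the count table, 4 were expressed highly enough to be tested, 2 of these were higher at an unadjusted p below 0.05 (against 3.5% of all genes, and 0 in an unblocked fit), and 6 had no count in any of the 4 libraries. The sum was 1023 and 11.5 CPM in the BT and 52.8 and 10.7 CPM in the BA. KCNJ13, a potassium channel gene, made up most of the sum in 3 libraries but not in the BA of rabbit 4, at 912 and 8.38 CPM in the BT and 47.9 and 3.74 CPM in the BA. TTR, a carrier of thyroxine and retinol made by the choroid plexus, was at 107 and 0.310 CPM in the BT and 3.51 and 0 CPM in the BA. Markers of brain parenchyma summed to 25.5 and 10.2 CPM in the BT and 22.4 and 11.8 CPM in the BA, and the astrocyte water channel gene AQP4 had no count in any of the 4. The part of leptomeningeal or choroid plexus RNA in the 10 genes that rose was not tested.

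Macrophage markers were higher in the BT at an unadjusted p below 0.05 for 6 of 14 (42.9%, against 3.5% of all genes), and 0 were lower. The median log2 fold change was 1.86, and an unblocked fit gave 0. The complement component gene C1QC was at 219 and 11.9 CPM in the BT and 90.3 and 2.57 CPM in the BA. TYROBP, a signalling adaptor of myeloid cells, was at 310 and 36.0 CPM in the BT and 154 and 4.44 CPM in the BA. MRC1, the mannose receptor of perivascular macrophages, was at 82.1 and 24.4 CPM in the BT and 24.1 and 0.156 CPM in the BA. Only for MRC1 of these 3 did the BT libraries lie above both BA libraries. Within each rabbit the summed macrophage level was higher in the BT, at 1674 against 750.4 CPM in rabbit 3 and 419.8 against 263.5 CPM in rabbit 4. Complement and MHC class II genes share members with the macrophage list. Of 12 tested, 4 were higher at an unadjusted p below 0.05 (33.3%, against 3.5% of all genes) and 0 without the block. Of these, C1S, a protease of the classical complement pathway, was at 532 and 301 CPM in the BT and 270 and 138 CPM in the BA, without overlap.

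**Figure D4:**
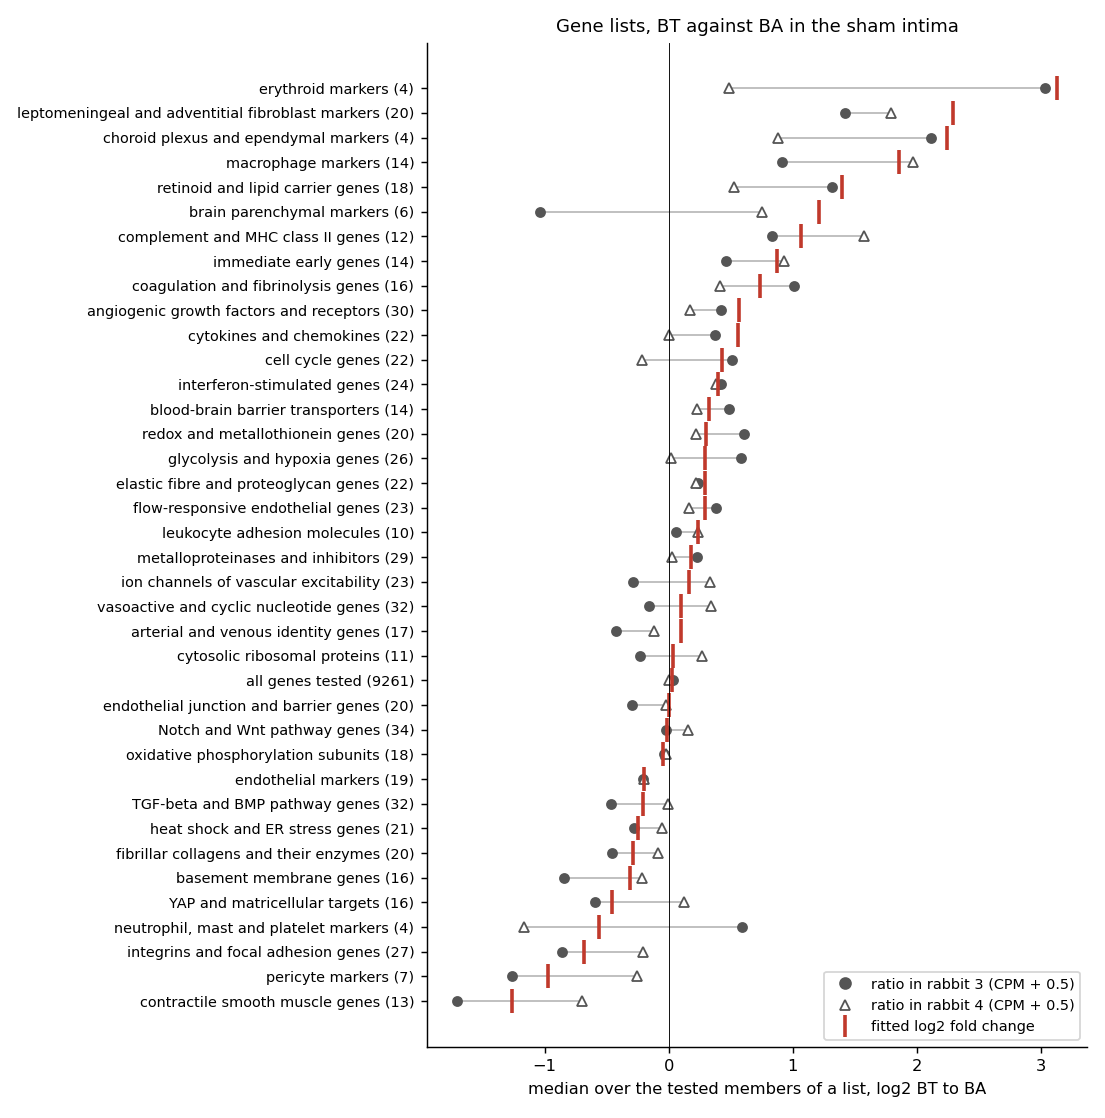
Median log2 ratio of BT to BA over the tested members of each gene list with at least 4 of them (number in parentheses), for rabbit 3 (filled circles), rabbit 4 (open triangles) and the fitted log2 fold change (vertical bars). Contractile smooth muscle genes lie at the lower end with a fitted median of -1.26, leptomeningeal and macrophage markers lie near the upper end at 2.29 and 1.86, and all 9261 genes tested lie at 0.02.

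Growth factors, retinoid carriers and some matrix genes also had members above the BA in both rabbits. Of 30 angiogenic growth factors and receptors, 8 were higher at an unadjusted p below 0.05 (26.7%, against 3.5% of all genes) and 0 were lower. The median log2 fold change was 0.57. Without the rabbit block, 4 were higher. Besides PTN, IGF1, an insulin-like growth factor, was at 98.0 and 6.21 CPM in the BT and 7.68 and 0 CPM in the BA, and IGFBP6, a binding protein with preference for the related IGF2, was at 1852 and 571 CPM in the BT and 439 and 297 CPM in the BA. The proteoglycan gene ESM1 was at 257 and 0 CPM in the BT and 16.9 and 0 CPM in the BA, so its value came from rabbit 3 alone. Of 18 retinoid and lipid carrier genes, 6 were higher at an unadjusted p below 0.05 (33.3%, against 3.5%) and 0 without the block. The median was 1.40. ALDH1A2, which makes retinoic acid, was at 262 and 26.4 CPM in the BT and 63.1 and 0.0779 CPM in the BA. Of 22 elastic fibre and proteoglycan genes, 6 were higher (27.3%, against 3.5%) at that unadjusted threshold, EFEMP1 among them, and 0 without the block. VCAN, the large proteoglycan versican, was at 263 and 5.74 CPM in the BT and 46.6 and 1.01 CPM in the BA, and MFAP5, a microfibril protein, was at 159 and 13.2 CPM in the BT and 17.1 and 0 CPM in the BA.

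Among 16 genes of the coagulation and fibrinolysis list, 4 were higher at an unadjusted p below 0.05 (25%, against 3.5% of all genes). At that threshold 1 was lower (6.25%, against 1.78%). The 4 higher genes were SERPINF1, F3, PROS1 and SERPIND1. SERPINF1 encodes the anti-angiogenic factor described above and is not a clotting gene, so the 25% includes a gene outside the theme of the list. An unblocked fit gave 2 higher and 0 lower. F3, tissue factor, was at 251 and 18.9 CPM in the BT and 93.7 and 3.27 CPM in the BA. PROS1, the anticoagulant protein S, was at 634 and 11.2 CPM in the BT and 160.0 and 0 CPM in the BA. PLAUR, the urokinase receptor, ran the other way at 0.653 and 6.67 CPM in the BT and 10.0 and 34.0 CPM in the BA, without overlap. The sodium pump subunit ATP1B1 was at 262 and 29.0 CPM in the BT and 7.19 and 5.69 CPM in the BA, without overlap (q = 0.149, edgeR's quasi-likelihood test). Of 24 interferon-stimulated genes, 3 were higher (12.5%, against 3.5% of all genes) and 0 were lower at an unadjusted p below 0.05. Within both rabbits 13 of the 24 were higher in the BT, as were 24.5% of all genes tested. The antiviral gene RSAD2 had 41 and 66 counts in the BT and 0 and 1 in the BA. IFI44L was at 76.9 and 211 CPM in the BT and 36.5 and 113 CPM in the BA, and IFIH1, a sensor of double-stranded RNA, was at 46.2 and 64.7 CPM in the BT and 15.8 and 33.2 CPM in the BA. Without the rabbit block, 1 interferon-stimulated gene was higher.

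Other lists had few or no members past the unadjusted threshold. Of 18 oxidative phosphorylation subunits, 11 cytosolic ribosomal proteins and 22 cell cycle genes, 0 passed the unadjusted threshold, with median log2 fold changes of -0.04, 0.03 and 0.43. Of 34 Notch and Wnt genes, with a median of -0.02, RSPO3 was higher and HEYL lower at an unadjusted p below 0.05 (2.94% each). Over all genes tested the shares were 3.5% higher and 1.78% lower. HEYL, a Notch target of smooth muscle, was at 34.9 and 95.9 CPM in the BT and 99.4 and 134 CPM in the BA. Of 32 TGF-beta and BMP pathway genes, 1 was higher and 1 was lower at that threshold (3.12% each), and the median was -0.20. The lower gene was the growth factor TGFB3, at 205 and 271 CPM in the BT and 648 and 465 CPM in the BA, and the higher was the co-receptor TGFBR3, at 552 and 88.6 CPM in the BT and 207 and 19.7 CPM in the BA. An unblocked fit gave 0 higher and 1 lower. Of 14 blood-brain barrier transporters, SLC22A8 was higher and SLC7A1 lower at an unadjusted p below 0.05 (7.14% each, against 3.5% and 1.78% of all genes). The median was 0.33, and 12 of the 14 had a positive fitted difference, as did 51.4% of all genes tested. SLC7A1, a cationic amino acid carrier, was at 13.1 and 34.9 CPM in the BT and 51.4 and 63.9 CPM in the BA. In an unblocked fit 0 of these transporters passed in either direction, and of the Notch and Wnt genes 1 was higher and 0 were lower. SLC2A1, the glucose transporter of barrier endothelium, was at 147 and 884 CPM in the BT and 105 and 842 CPM in the BA. The fibrillar collagens and their enzymes had 2 of 20 lower at an unadjusted p below 0.05 (10%, against 1.78% of all genes, and 0 in an unblocked fit). These were COL12A1 and COL5A2, with log2 differences of -1.23 and -0.92. The median of the 20 was -0.285.

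The same comparison was set beside 2 others. In the intima of the ligated rabbits, whose basilar flow was raised, 0 of 8649 genes passed the adjusted threshold (0%), and 221 (2.56%) had an unadjusted p below 0.05 by edgeR's quasi-likelihood test. In the sham media of the same rabbits 3 and 4, 132 of 8849 genes passed (1.49%), and 1 passed without the rabbit block.

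PTN had no count in any of the 4 ligated intimal libraries, and neither did SLC26A7, SLC22A6 and SLC22A8. ANXA8 was at 233 and 173 CPM in the ligated BT and 38.1 and 97.5 CPM in the ligated BA, with the BT above the BA in both rabbits as in the sham animals. SLC16A9 was at 0.670 and 0.976 CPM in the ligated BT and 41.5 and 2.06 CPM in the ligated BA, and SERPINF1 was at 10.1 and 2.84 CPM in the ligated BT and 144 and 3.74 CPM in the ligated BA, so for both the BT was below the BA. The difference between the flow groups was tested as an interaction, and 0 of 9641 genes passed the adjusted threshold (0%), with 332 (3.44%) at an unadjusted p below 0.05 by edgeR's quasi-likelihood test. This test could not call PTN, SLC26A7, SLC22A6 or SLC22A8. With no ligated count, their standard errors were 6782 or more on the log2 scale, so the 0 says nothing about these genes. Nor does it about DPP4, whose standard error was 43.2. DPP4 was at 0 and 0.089 CPM in the ligated BT and 0 and 0 CPM in the ligated BA. The genes of smallest p in the interaction were CXCL10, SCD5 and VIT. CXCL10, an interferon-induced chemokine, was at 13.7 and 55.4 CPM in the sham BT and 10.5 and 42.1 CPM in the sham BA, and at 0 and 0 CPM in the ligated BT and 0.708 and 598 CPM in the ligated BA (q = 0.0576, edgeR's quasi-likelihood test). Leaving out rabbit 6 raised the count of this interaction from 0 to 176, and leaving out rabbit 5 raised it to 1.

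The leptomeningeal sum was 2016 to 6504 CPM in the 4 ligated intimal libraries, and the choroid plexus sum was 1.53 to 8.61 CPM. The lowest leptomeningeal sum of the 4 sham intimal libraries was 6973 CPM, but sham and ligated libraries were scaled separately. The part of these levels in the comparison of sham with ligated intima was not tested. In the sham media the leptomeningeal sum was 21000 to 27780 CPM, and the choroid plexus sum was 1.87 and 82.3 CPM in the BT and 63.0 and 1652 CPM in the BA. OGN was at 6392 to 10882 CPM and COL3A1 at 6258 to 9753 CPM in the sham media. In the ligated intima OGN was at 210 to 1742 CPM and COL3A1 at 740 to 1266 CPM. The leptomeningeal sum thus leans on genes abundant in the media and does not measure leptomeningeal tissue alone.

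The difference of BT against BA itself differed between the sham intima and the sham media for 5 of 9639 genes (0.0519%, edgeR's quasi-likelihood test of the interaction), all higher in the intima. These were TTR and 4 of the genes that rose in the intima, PTN, ANXA8, SLC16A9 and EFEMP1. In the media ANXA8 was at 0 and 1.34 CPM in the BT and 12.8 and 21.3 CPM in the BA, the reverse of the intima. EFEMP1 was reversed as well, at 5.88 and 34.2 CPM in the medial BT and 209 and 224 CPM in the medial BA, and SLC16A9 was at 12.6 and 22.9 CPM in the medial BT and 49.1 and 110 CPM in the medial BA. In the media PTN was at 28.6 and 73.2 CPM in the BT and 3.35 and 30.4 CPM in the BA, the same direction as in the intima with a smaller difference. The medial BA of rabbit 4, which had the highest choroid plexus sum of the series, held TTR at 1554 CPM.

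**Figure D5:**
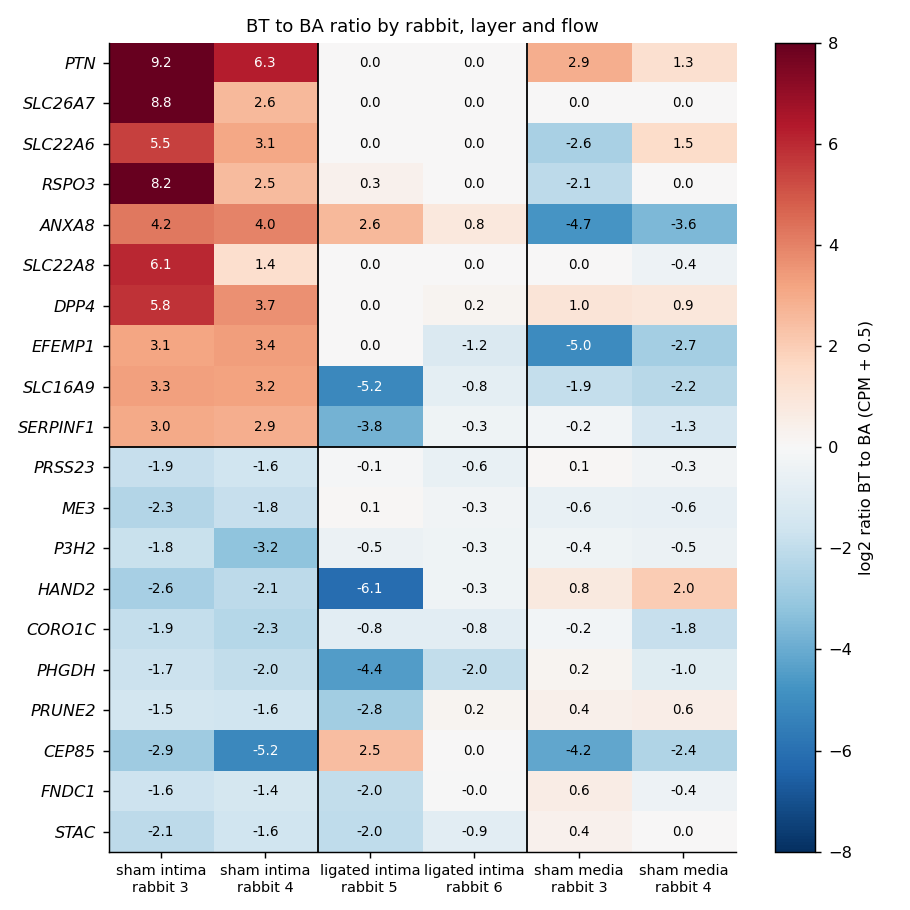
Log2 ratio of BT to BA, on log2(CPM + 0.5), for the 10 genes that rose in the BT of the sham intima (upper rows) and the 10 of smallest p that were lower (lower rows), by rabbit in the sham intima, the ligated intima and the sham media. A ratio of 0.0 can stand for 0 CPM at both locations, as for PTN in the ligated intima, or for equal levels, as for STAC in the medial libraries of rabbit 4. Ratios of the upper genes were positive in both sham intimal rabbits by selection, ANXA8 was positive in both ligated rabbits, and EFEMP1, ANXA8 and SLC16A9 were negative in both medial rabbits.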

How the data were processed

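RNA was measured in 16 libraries of laser-microdissected intima or media from the BT or BA of 4 rabbits, and the 4 libraries of the sham intima were compared, BT against BA, with rabbit as the pair. Both locations came from the same animals, and the deviations of rabbit 3 from rabbit 4 in the BT and in the BA correlated at r = 0.36 across 9261 genes. The deposited table holds raw counts by gene symbol, made by the authors from SMART-Seq v4 and Nextera libraries by STAR alignment of untrimmed reads to OryCun2.0 and by counting uniquely mapped reads. The submitters' processing notes name bcl2fastq 2.20.0.422, FastQC 0.11.5, MultiQC 1.5, SAMtools 1.9 and featureCounts 1.6.2. Counting used the reverse-stranded setting of featureCounts although the kit does not mark strand, and the effect of this on the counts was not tested. Reads of near-identical gene copies are lost in unique mapping, and reads of a gene and an antisense partner cannot be told apart. The entry without a symbol held 14.9% to 18.7% of counts in these 4 libraries and was left out of totals and tests, and 22 symbols that dates had replaced stayed unmapped.

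Counts were scaled by TMM and tested with edgeR 4.0.16 (limma 3.58.1, R 4.3.3) by the quasi-likelihood F test in its older form, for genes with a mean above 1 CPM in a group, with Benjamini-Hochberg adjustment and a threshold of 0.05. Between the 2 rabbits of a location, chi-square divided by its degrees of freedom was 323 and 414, so spread between samples exceeded counting error. In the fit of the sham intima the block left 1 residual degree of freedom beside 7.82 prior ones. Log2 ratios within a rabbit, and the counts of genes past 4-fold or 2-fold, used log2(CPM + 0.5). Fold ratios within a rabbit and their counting intervals were ratios of scaled counts with nothing added. PTN in rabbit 4 was thus 561.7-fold higher as a ratio of counts, with a log2 ratio of 6.26 after the addition. Against a count of 0, fold ratios used a limit of 3 counts, which were 0.181 to 0.466 CPM. Interactions were fitted on 8 intimal or 8 sham libraries. CPM values printed for other layers or flow groups were scaled separately within each layer and flow group. Of 13788 symbols, 12688 were in the RefSeq table, whose assembly differs from the authors', so no coordinates or sequences are printed. Tests were run on simulated data with less spread than these data. That check covered the sign and size of differences, not the rate of false calls.

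Genes named were all past the threshold, the smallest p values in a direction up to 10, the 3 smallest of each interaction, and per gene list the smallest p values, the most abundant members or, for markers, the defining genes. TLN2, ATF3, SERPIND1, SYNPO2, LMOD1, MYLK, SMTN and AQP4 were named after their values were seen. The members and lists were chosen with earlier results of these data known, and lists carry counts and medians with no test. Alternatives were no replicate block, RLE scaling, library size alone, other filters, edgeR's version 4 form, DESeq2 1.42.0, larger fits, and leaving out each rabbit. Figures used Python 3.11.15 with matplotlib 3.10.9.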

Additional observations from a re-analysis of the deposited data

Results flagged for a closer look

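For 5 genes the difference of BT against BA was not the same in the sham intima and the sham media, by edgeR's quasi-likelihood test of the interaction with rabbit and layer as blocks. The log2 difference in the intima minus that in the media was 10.90 for TTR (q = 0.000704), 7.15 for PTN (q = 0.0185), 8.86 for ANXA8 (q = 0.0185), 5.59 for SLC16A9 (q = 0.0185) and 7.33 for EFEMP1 (q = 0.0301). TTR, ANXA8, SLC16A9 and EFEMP1 were higher in the BT of the intima and lower in the BT of the media within both rabbits, except that TTR in the intima of rabbit 4 was 2 counts against 0. PTN was higher in the BT of both layers. A fitted value for TTR and ANXA8 depends on the small count added to libraries at 0 and is no bound. Groups of 2 samples were too small for a search for single outlying samples.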

How the results depend on the processing

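The count of genes past the adjusted threshold in the sham intima, 10, depended on most choices. RLE scaling gave 10 and filterByExpr 9. The count was 0 with no replicate block for the pairing by rabbit, 110 with library size alone (101 higher and 9 lower), 46 with all genes with a count, 5 with a mean above 10 CPM, 1 with edgeR's version 4 form, 134 with DESeq2 (111 higher and 23 lower), 1 in a fit of 8 intimal libraries, 2 in a fit of 8 sham libraries, and 0 without rabbit 3 and 0 without rabbit 4, where 110 and 233 genes had an unadjusted p below 0.05. With no replicate block that number was 198. PTN was past the threshold in every one of these fits but those without the block or without a rabbit. All 10 genes kept a positive difference wherever a value was obtained, and SLC22A8 gave none without rabbit 3. This sign was fixed by selection, since all 10 were higher in the BT within both rabbits and each fit reused those libraries.

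The count for sham against ligated intima was 0, and it was 1 with library size alone, 1 with all genes, 63 with DESeq2 (56 higher and 7 lower), and 0 to 176 on leaving out a rabbit. The count for intima against media was 5, and it was 0 with no replicate block, 13 with all genes and 116 with DESeq2 (86 higher and 30 lower). Leaving out a rabbit there could not be fitted, since no residual degree of freedom remains. In 2 comparisons whose alternatives were chosen after seeing the data, the sham media gave 132, 1 with no replicate block and 63 with RLE scaling, and the ligated intima gave 0 throughout. The causes of these changes were not tested.

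Of 1149 alternative values for 96 named genes, 1003 kept their direction and side of the threshold, 79 newly passed it, 64 no longer did, and 3 changed sign. Only 10 of the 96 genes had passed in the main fit. All 64 losses therefore fell on those 10, and most of the 1003 belonged to genes that had not passed. The sign changes were VWF to 0.042 with no replicate block and DUSP1 and VWF on leaving out a rabbit, where DUSP1 ran from -0.093 to 0.614 and VWF from -0.578 to 0.189. Depth limits the low genes of the BT of rabbit 4, where 3 counts were 0.466 CPM.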
